A study of Homo sapiens with 10 samples.

Results

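The T and NK cell signalling genes examined here are CD3D, CD3E, CD3G, CD247, CD7, CD8A, LCK, ZAP70, NKG7 and CST7. They were taken by name from the deposited gene table, and all 10 were found among its 50868 genes. The cells were Kasumi-1, a human myeloid leukemia line with the t(8;21) translocation, cultured for a few passages. A retroviral vector carrying GFP brought in HA-tagged E2-2, E2A or HEB (the products of TCF4, TCF3 and TCF12), and control cells received the MIGR1 vector alone. GFP-positive cells were sorted at day 4 after infection, and 1 RNA library was sequenced for each of vector, HEB, E2A and E2-2. Every group, the vector group included, thus consists of transduced, sorted cells of 1 line that keep the translocation. Of the cells' own E protein transcripts, TCF3 and TCF12 were present in vector, while TCF4 had 4 reads there. The question behind the series, from its title, is how the roles of the E proteins differ in this leukemia. The ChIP libraries of the series were not analysed here.

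In T cells, the antigen receptor has no signalling tail of its own and relies on the CD3 chains (CD3D, CD3E, CD3G) and on the zeta chain, encoded by CD247. The tyrosine kinase LCK, brought close by the coreceptors CD4 or CD8, phosphorylates motifs called ITAMs in these chains, and ZAP70 then docks there and passes the signal on. E proteins are basic helix-loop-helix factors that bind the DNA sequence CANNTG, the E-box, and are known regulators of genes of the T and B lymphoid lineages. Myeloid cells use related parts for their own receptors: the kinases LYN and SYK and the ITAM adaptors encoded by FCER1G and TYROBP.

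The libraries held 14816708 to 17673090 counted reads. Each transduced gene was highest in its own library, with TCF4 at 12484 reads in E2-2 against 4 in vector, TCF3 at 23186 in E2A against 3934, and TCF12 at 13842 in HEB against 2568. Levels are given as reads and as CPM, counts per 1000000 after scaling of the library sizes. A level of 3 reads, taken as the floor, equals 0.170 to 0.198 CPM. Since each group is 1 library, differences between cultures are unknown and no p-value is given. Values in parentheses after a fold are 95% exact intervals that cover counting error and nothing else, and several reads may come from 1 molecule. A gene is called higher or lower where 3 conditions held: a fold of 2 or more, an interval that leaves out 1, and at least 30 reads in the pair of libraries. A call describes these libraries, not the conditions. In a bulk library, fewer cells with a transcript and less of it per cell cannot be told apart.

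The label of the genes names T and NK cells, and the cultures were labelled as myeloblasts, so markers of both kinds were examined. The myeloblast genes were abundant, with 210409 to 374274 reads summed over 9 markers, and MPO, the myeloperoxidase gene, alone had 170661 to 298092. Of 10 T cell markers, 7 to 9 had a read in a library and 2 to 5 had more than 3. Their sum was 11.8 to 15.6 CPM, most of it from TCF7, at 143 to 206 reads. CD28 had 0 reads in all 4 libraries, TRAC, the receptor alpha constant gene, had 1 to 3 and CD2 had 0 to 7. TRBC1, a receptor beta constant gene, had 24 to 38 reads and TRBC2 had 0 to 10. IL7R, the interleukin 7 receptor gene, had 1 read in vector and 31 in E2-2 (31.9-fold, 5.31 to 1300). It was called with 32 reads, 31 of them from E2-2. Of 8 NK cell markers, 3 to 6 had a read and the sum was 1.67 to 2.64 CPM. NCR1 had 16 to 21 reads and KLRD1 6 to 8, while GNLY had 0 reads in all 4 libraries. The members were low-level transcripts too, and their reads summed to 126 in vector, 125 in HEB, 111 in E2A and 96 in E2-2.

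The sequences before the start sites of CD3D and CD8A are shown because these were the members called lower than vector in more than 1 E protein library. RefSeq entries (GRCh38.p14) were matched for 6 of the 10 genes, CD3D, CD247, CD8A, LCK, ZAP70 and NKG7, and not for CD3E, CD3G, CD7 and CST7. The printed stretches lie on the minus strand at chr11:118342745-118342955 and chr2:86808397-86808646, outside the gene spans of the deposited table. Capitals mark CANNTG and the RUNX core TGTGGT, searched on both strands.
CD3D: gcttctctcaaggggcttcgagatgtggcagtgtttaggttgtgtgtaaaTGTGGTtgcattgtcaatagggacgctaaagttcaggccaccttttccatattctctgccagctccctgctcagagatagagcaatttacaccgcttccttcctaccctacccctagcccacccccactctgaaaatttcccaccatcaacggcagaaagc
CD8A: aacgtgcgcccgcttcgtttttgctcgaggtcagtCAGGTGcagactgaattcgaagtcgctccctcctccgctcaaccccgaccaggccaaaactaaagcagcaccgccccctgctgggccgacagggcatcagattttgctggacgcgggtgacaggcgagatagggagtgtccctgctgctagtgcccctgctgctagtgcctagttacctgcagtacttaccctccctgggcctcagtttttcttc
The CD3D window held TGTGGT and no CANNTG. The CD8A window held CAGGTG, which is a form of CANNTG. Over all 35116 RefSeq promoter windows of 300 bases, 68.7% held CANNTG, 20.6% held CAGGTG or its complement CACCTG, and 13.1% held TGTGGT or its complement ACCACA. CD8A has 3 other start sites in the table, and their windows held 0, 3 and 4 matches to CANNTG. These matches describe letters in a window and not binding.

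CD3D, which encodes the CD3 delta chain (ENSG00000167286, chromosome 11, 118338954 to 118342744), was the member with the largest fold between libraries. It had 34 reads in vector, 15 in HEB, 10 in E2A and 2 in E2-2, or 2.18, 0.906, 0.566 and 0.132 CPM. The vector library was highest and the E2-2 library was under the floor. Relative to vector, CD3D in E2-2 was lower by a factor of 16.5 (4.24 to 142). The factor was 3.85 (1.86 to 8.74) for E2A and 2.40 (1.28 to 4.75) for HEB, and CD3D was called lower in each. The 3 values share the 34 reads of the vector library. Among the E protein libraries, CD3D in E2-2 lay below HEB by a factor of 6.87 (1.60 to 61.9) and below E2A by a factor of 4.29 (0.915 to 40.3), with 17 and 12 reads behind these ratios, too few for a call. HEB and E2A did not differ beyond counting error, at 1.60-fold (0.673 to 3.99).

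The other CD3 chains lie beside CD3D and had fewer reads. CD3E, the epsilon chain gene (chromosome 11, 118304545 to 118316175), had 9 reads in vector, 7 in HEB, 5 in E2A and 2 in E2-2, the same order of libraries as CD3D. Its ratio of E2-2 to vector was 4.38-fold (0.906 to 41.6) lower, an interval that includes 1. CD3G, the gamma chain gene (chromosome 11, 118344344 to 118355161), had 3 reads in vector, 3 in HEB, 7 in E2A and 5 in E2-2. It begins 1600 bases from the end of CD3D, and its highest library was E2A rather than vector. No CD3E or CD3G difference could be told from counting error, so the CD3D values were not shown to extend to its neighbours. UBE4A, a ubiquitin ligase gene 4424 bases beyond CD3G, stood at 1275 to 1340 reads in all 4 libraries.

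CD247, the zeta chain gene (ENSG00000198821, chromosome 1, 167430640 to 167518610), differed little. It had 21 reads in vector, 18 in HEB, 15 in E2A and 15 in E2-2. All 4 intervals overlapped, from 0.475 to 2.06 CPM. Relative to vector it was lower by a factor of 1.24 (0.628 to 2.46) in HEB, of 1.59 (0.779 to 3.31) in E2A and of 1.36 (0.669 to 2.84) in E2-2. All 3 intervals include 1, and none of them leaves out a CD247 level 2-fold below vector.

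CD8A encodes the alpha chain of the CD8 coreceptor (ENSG00000153563, chromosome 2, 86784610 to 86808396). It had 37 reads in vector, 27 in E2A, 16 in HEB and 16 in E2-2, or 2.37, 1.53, 0.967 and 1.06 CPM. Against vector, the CD8A level in HEB was 2.45-fold (1.33 to 4.72) lower and that in E2-2 was 2.25-fold (1.22 to 4.33) lower, both called. In E2A it was 1.55-fold (0.920 to 2.65) lower and not called. The E2A library did not stand apart from HEB (1.58-fold, 0.821 to 3.14, higher) or from E2-2 (E2-2 1.45-fold, 0.753 to 2.88, lower).

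The cytoplasmic kinases had few reads, and LCK was near the floor. LCK (ENSG00000182866, chromosome 1, 32251239 to 32286165) had 2 reads in vector, 3 in HEB, 6 in E2A and 5 in E2-2, and no LCK ratio could be told from 1. ZAP70 (ENSG00000115085, chromosome 2, 97713560 to 97739862) had 11 reads in vector, 9 in HEB, 16 in E2A and 10 in E2-2. Its largest ratio to vector was 1.30-fold (0.488 to 3.54) lower in HEB. CD7, a surface protein of T and NK cells and their precursors (ENSG00000173762, chromosome 17, 82314868 to 82317602), had 0 reads in vector, 0 in HEB, 3 in E2A and 1 in E2-2. No library held more than the floor of 3 reads, so no CD7 fold is given.

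**Figure D1:**
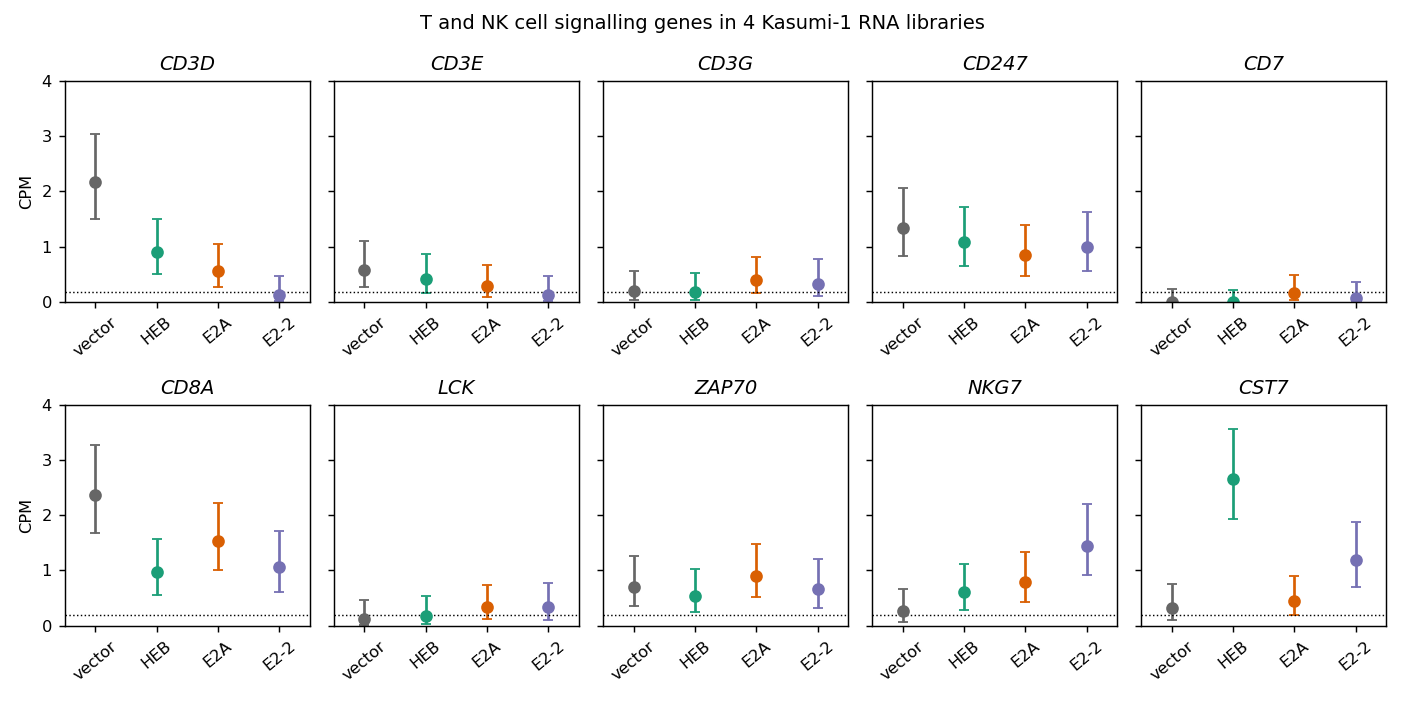
Level in CPM of each of the 10 genes in the vector, HEB, E2A and E2-2 libraries, 1 point per library with its 95% counting interval; the dotted line is the floor of 3 reads, averaged over libraries. CD3D goes from 2.18 CPM in vector to 0.132 in E2-2, and CST7 reaches 2.66 CPM in HEB; heights are not comparable between genes, since CPM does not account for gene length.

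The cytotoxic-cell genes took other orders. CST7 encodes cystatin F, an inhibitor of the cysteine cathepsins of cytotoxic and myeloid cells (ENSG00000077984, chromosome 20, 24949230 to 24959928). It had 44 reads in HEB, 18 in E2-2, 8 in E2A and 5 in vector, or 2.66, 1.19, 0.453 and 0.321 CPM. The HEB library stood above each other library. CST7 in HEB exceeded vector 8.29-fold (3.30 to 26.8), E2A 5.87-fold (2.73 to 14.4) and E2-2 2.24-fold (1.27 to 4.12), all called. E2-2 was 3.70-fold (1.32 to 12.8) above vector with 23 reads, under the minimum for a call, and E2A was 1.41-fold (0.407 to 5.49) above it.

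NKG7 encodes a membrane protein of cytotoxic granules (ENSG00000105374, chromosome 19, 51371606 to 51372715). It had 22 reads in E2-2, 14 in E2A, 10 in HEB and 4 in vector. E2-2 was highest and vector lowest, at 1.45 against 0.256 CPM. NKG7 was 2.40-fold (1.09 to 5.68) higher in E2-2 than in HEB, which was called. It was 5.66-fold (1.92 to 22.6) above vector in E2-2 with 26 reads, under the minimum for a call, and its ratio was 3.09 (0.970 to 12.9) for E2A and 2.36 (0.680 to 10.3) for HEB, intervals that include 1. E2-2 and E2A did not differ beyond counting error, at 1.83-fold (0.896 to 3.87).

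**Figure D2:**
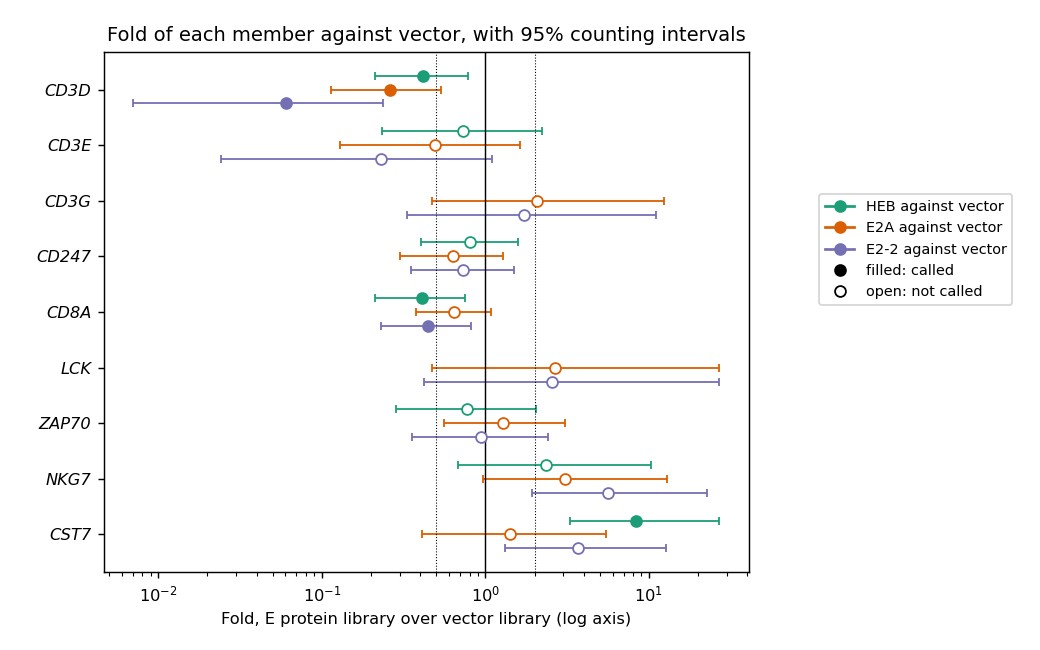
Fold of each member in the HEB, E2A and E2-2 libraries over the vector library on a log axis, with 95% counting intervals as lines, filled points for calls and dotted lines at 2-fold either way. CD7 and points with at most 3 reads in both libraries are left out, and the filled points are CD3D in all 3 comparisons, CD8A in HEB and E2-2, and CST7 in HEB.

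Counted over the list, few members could be measured. Of 10 members, 3 reached 30 reads in E2-2 with vector (CD3D, CD8A and CD247), and 0 were called higher and 2 lower. Over all 13884 genes measured in that comparison, 8.45% were called higher and 3.55% lower. In E2A with vector the same 3 members were measured, with 0 higher and 1 lower (CD3D), beside 4.89% higher and 1.58% lower of 13901 genes. In HEB with vector 4 were measured, with 1 higher (CST7) and 2 lower (CD3D and CD8A), beside 2.55% and 1.23% of 13695 genes. A member with low counts in both libraries could not be called in either direction, and CD3D and CD8A passed the minimum mainly through their vector reads and CST7 through its HEB reads, so these shares are not read as a property of the list.

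Between E protein libraries, E2-2 with E2A gave 0 members higher and 0 lower of 3 measured (3.63% and 1.61% of all genes). E2-2 with HEB gave 1 higher (NKG7) and 1 lower (CST7) of 4 (6.09% and 1.57%). E2A with HEB gave 0 higher and 1 lower (CST7) of 3 (2.38% and 0.696%). CST7 passed the minimum in these comparisons mainly through HEB (44 reads), and NKG7 passed it in E2-2 with HEB mainly through E2-2 (22 of 32 reads), so each was measured through the library where it was high. CST7 was higher in HEB and NKG7 in E2-2.

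The kinases and adaptors related to LCK, ZAP70 and CD247 were examined as a list of 12 SRC, SYK and ITAM adaptor genes. Over all genes, as above, 8.45% were higher and 3.55% lower in E2-2, 4.89% and 1.58% in E2A, and 2.55% and 1.23% in HEB. In E2-2, 7 of 10 measured genes were called higher and 0 lower, with a median log2 fold of 2.30 beside -0.03 over all genes. In E2A, 6 of 9 were higher and 0 lower (median 1.26 beside -0.01). In HEB, 2 of 8 were higher and 0 lower (median 0.32 beside 0.01). The measured genes changed between comparisons, and TYROBP reached the minimum only in E2-2, through 34 of 37 reads. A gene low in vector was measured only where the E protein library was high. These counts and medians are therefore partly set by the minimum and are not compared between libraries. The list was chosen with earlier results of these data known, and CD79A, a B cell receptor adaptor gene, is in it.

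Among the SRC family kinases, FYN, which shares with LCK a role in T cell receptor signalling, had 48 reads in vector, 82 in HEB, 138 in E2A and 127 in E2-2, and was called in E2A (2.54-fold, 1.82 to 3.60) and E2-2 (2.72-fold, 1.94 to 3.88). SRC had 28, 42, 76 and 136 reads in the same order of libraries, and stood 2.40-fold (1.54 to 3.84) above vector in E2A and 5.00-fold (3.31 to 7.80) above it in E2-2. LYN, the main such kinase of many myeloid and B cells, stood at 2985 to 3357 reads and YES1 at 651 to 1316, with no call for either. YES1 still lay below vector beyond counting error, by 1.84-fold (1.67 to 2.02) in E2-2 and 1.32-fold (1.22 to 1.44) in E2A. In HEB the YES1 ratio to vector was 1.01 (0.932 to 1.09). FGR had 0 reads in vector and 1, 2 and 10 in HEB, E2A and E2-2. With the 0 set to 3 reads, FGR was 3.43-fold higher in E2-2, under the minimum for a call. The counting interval for 10 against 0 reads began at 2.31. BLK had 0 reads in every library.

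SYK, the relative of ZAP70, had 35 reads in vector, 75 in HEB, 150 in E2A and 266 in E2-2. It was called higher in all 3, by 2.02-fold (1.34 to 3.11), 3.78-fold (2.60 to 5.63) and 7.82-fold (5.48 to 11.5). ZAP70 itself stayed between 9 and 16 reads. FCER1G, the Fc receptor gamma chain gene, whose protein is related to the zeta chain, had 20 reads in vector, 86 in HEB, 255 in E2A and 184 in E2-2, and was 4.05-fold (2.47 to 6.96), 11.3-fold (7.14 to 18.7) and 9.46-fold (5.95 to 15.9) higher. TYROBP, the DAP12 adaptor gene, had 3, 9, 14 and 34 reads and was called in E2-2 (11.7-fold, 3.67 to 59.3). TYROBP passed the minimum there mainly through E2-2, with 34 of 37 reads, and was under the minimum in E2A and HEB. CD79A had 30, 35, 75 and 141 reads and was called in E2A (2.21-fold, 1.43 to 3.49) and E2-2 (4.83-fold, 3.24 to 7.43), while CD79B stayed at 136 to 211 reads with no call. Whether the relatives changed more than LCK, ZAP70 or CD247 was not tested, and the wide intervals of LCK overlap those of several of them. In E2-2, the ratio to vector had an interval of 0.356 to 2.43 for ZAP70 and of 0.352 to 1.495 for CD247. Both intervals lay below those of SRC, SYK, FCER1G, TYROBP and CD79A. The FYN and FGR intervals overlapped that of ZAP70, and those of LYN, YES1 and CD79B overlapped both. The SYK interval overlapped both in HEB, and that of ZAP70 in E2A.

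**Figure D3:**
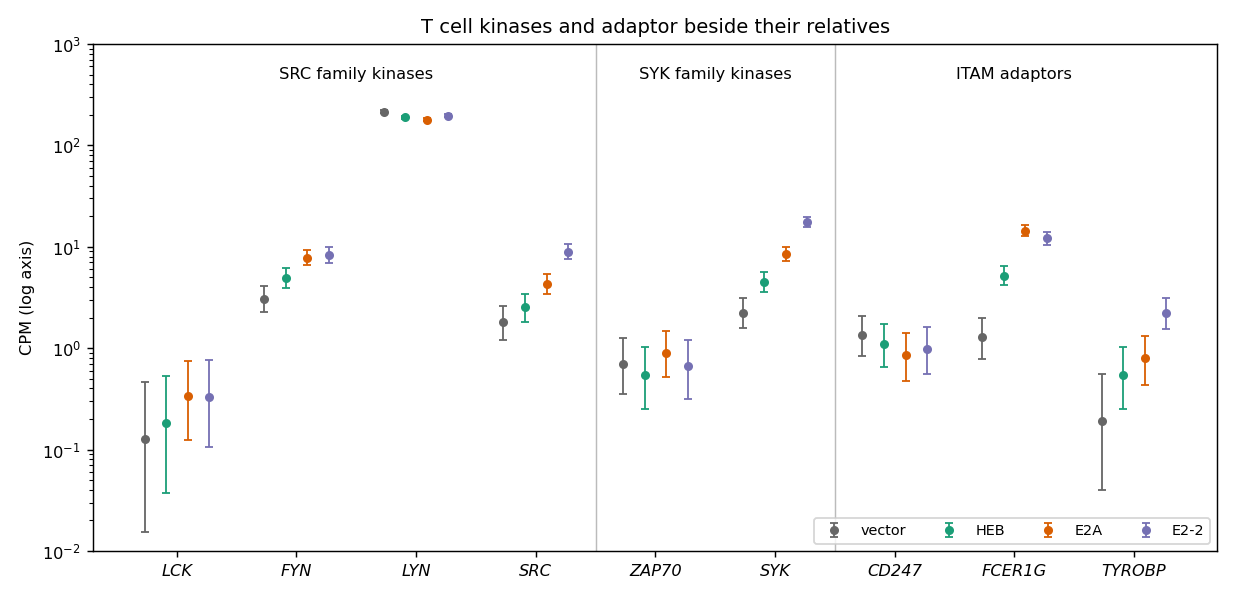
Level in CPM on a log axis of LCK, ZAP70 and CD247 beside related kinases and ITAM adaptors, 1 point per library with its 95% counting interval. Not every relative of the list is shown, and YES1, which was lower in E2-2 than in vector, and CD79B, which was not called, are among those left out. LCK, ZAP70 and CD247 stay within overlapping intervals while SYK goes from 2.24 CPM in vector to 17.5 in E2-2; points compare libraries for 1 gene, not genes with each other.

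Other genes of T cell receptor signalling came from a list of 34. In E2-2, 6 of 21 measured genes were called higher and 1 lower, in E2A 3 of 21 were higher and 0 lower, and in HEB 0 of 21 were higher and 0 lower. The shares over all genes were 8.45% higher and 3.55% lower in E2-2, 4.89% and 1.58% in E2A, and 2.55% and 1.23% in HEB. The list's median log2 folds were 0.36, 0.08 and 0.04, beside -0.03, -0.01 and 0.01 over all genes. FYN, described above, is counted in this list too. VAV1, an exchange factor of blood cells, had 689 reads in vector, 1240 in HEB, 1833 in E2A and 2101 in E2-2, a ratio to vector of 3.14 (2.88 to 3.42) in E2-2 and 2.35 (2.15 to 2.57) in E2A. CD4, the coreceptor gene that monocytic cells also express, was 2.10-fold (1.91 to 2.31) higher in E2A. NFATC2, a calcium-regulated transcription factor gene, was 2.38-fold (2.13 to 2.66) higher in E2-2, and PTPN6, the gene of the phosphatase SHP-1, 2.21-fold (2.05 to 2.38). The gene called lower was NFATC1, at 97 reads in vector and 38 in E2-2 (2.48-fold, 1.69 to 3.71), a gene outside the naming rule that was picked once its value was known. The T cell adaptor gene LAT had 1 to 5 reads in each library, while LCP2, whose protein SLP-76 is shared with myeloid cells, stood at 862 to 1121 reads.

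For the list of 27 NK cell and cytotoxic granule genes, 5 were measured in each comparison with vector. In E2-2, 1 was higher and 0 lower, and in E2A and HEB 0 were higher and 0 lower, beside all-gene shares of 8.45%, 4.89% and 2.55% higher. With 5 genes measured, counts of 0 or 1 are not read as a difference from these shares. The list's median log2 folds were -0.09, -0.10 and -0.13. The called gene was CD244, an NK and myeloid surface receptor gene, with 202 reads in vector, 392 in HEB, 435 in E2A and 614 in E2-2 (3.13-fold, 2.66 to 3.68). The perforin gene PRF1 had 0 to 3 reads and the granzyme gene GZMB 0 to 2, so NKG7 was not accompanied by these genes at a level above the floor. Of 11 cystatin and cathepsin genes, 9 were measured, and CTSS, the cathepsin S gene, was called higher in E2-2 (3.43-fold, 2.76 to 4.30) and none in E2A or HEB, which is not read as a difference from those shares either. The cystatin C gene CST3 stood at 515 to 581 reads and CTSC, the gene of the cathepsin that activates granule proteases, at 3020 to 4953. This list leaves out CST7, and none of its 9 measured genes was called in HEB, the library where CST7 was highest.

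Of 17 T cell transcription factor and precursor genes, 4 of 10 measured were higher in E2-2 and 0 lower, 3 of 9 higher in E2A and 0 lower, and 1 of 9 higher and 1 lower in HEB. Over all genes, 8.45% were called higher and 3.55% lower in E2-2, 4.89% and 1.58% in E2A, and 2.55% and 1.23% in HEB. The list's median log2 folds were 0.71, 0.48 and 0.16, beside -0.03, -0.01 and 0.01. RAG1, a recombinase gene of B and T cell precursors, had 12 reads in vector, 29 in HEB, 33 in E2A and 104 in E2-2 and was called in all 3, by 2.28-fold (1.13 to 4.90), 2.43-fold (1.22 to 5.16) and 8.91-fold (4.89 to 17.8). RUNX3, a factor of the CD8 T cell and NK lineages, was above vector by 2.05-fold (1.84 to 2.29) in E2A and by 2.82-fold (2.54 to 3.14) in E2-2. HES1, a Notch target, was above it by 2.18-fold (1.26 to 3.94) and 5.58-fold (3.40 to 9.64). ETS1 had 6 reads in vector, 4 in HEB, 1 in E2A and 30 in E2-2, where it was called (5.14-fold, 2.11 to 15.1). ETS1 passed the minimum there mainly through E2-2, with 30 of 36 reads, and was under the minimum in E2A and HEB. TOX was the gene called lower in HEB (2.25-fold, 1.46 to 3.55). PTCRA, which encodes the pre-T cell receptor alpha chain, had 0 to 2 reads.

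Genes around the members were compared to see whether a member's values were shared along its chromosome. The nearest gene with at least 30 reads over the 4 libraries was taken on each side, which gave 16 genes outside the list. Some lay far away, such as CST3 at 1310757 bases from CST7 and IL10RA at 337471 bases from CD3D. In E2-2, 3 of 15 measured were higher and 0 lower (IL10RA, SECTM1 and MTMR9LP), and in E2A and in HEB 2 of 14 were higher and 0 lower (SECTM1 and MTMR9LP), beside 8.45%, 4.89% and 2.55% of all genes in E2-2, E2A and HEB. SECTM1 lies 3422 bases from CD7 and encodes a secreted and membrane protein known to bind CD7. It had 1 read in vector, 67 in HEB, 126 in E2A and 216 in E2-2. SECTM1 thus passed the minimum in each comparison through the E protein library, where it was high. The counts of neighbours called are therefore not read as a difference from the shares over all genes. The ratio of SECTM1 to vector was 63.2 (11.0 to 2531) in HEB, 111 (19.6 to 4428) in E2A and 222 (39.5 to 8815) in E2-2, beside CD7 at no more than 3 reads in any library.

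MTMR9LP, a pseudogene 9619 bases from LCK, had 41 reads in vector, 156 in HEB, 303 in E2A and 209 in E2-2. It was 3.59-fold (2.53 to 5.19), 6.52-fold (4.70 to 9.28) and 5.24-fold (3.74 to 7.52) higher, and HDAC1 on the other side of LCK stood at 3587 to 4527 reads with no call. CD8B, the beta chain gene 6943 bases from CD8A, had 3 reads in vector, 12 in HEB, 18 in E2A and 19 in E2-2, so that vector was its lowest library and the highest for CD8A. Its ratios to vector were 3.77-fold (1.02 to 20.8), 5.30-fold (1.55 to 28.1) and 6.51-fold (1.92 to 34.4) higher, each with under 30 reads. CD8B has a close copy in the genome that can share reads. IL10RA, an interleukin 10 receptor gene 303062 bases from CD3E, had 3 reads in vector, 6 in HEB, 13 in E2A and 27 in E2-2 (9.26-fold, 2.85 to 47.7, called with 30 reads, the minimum, 27 of them from E2-2).

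**Figure D4:**
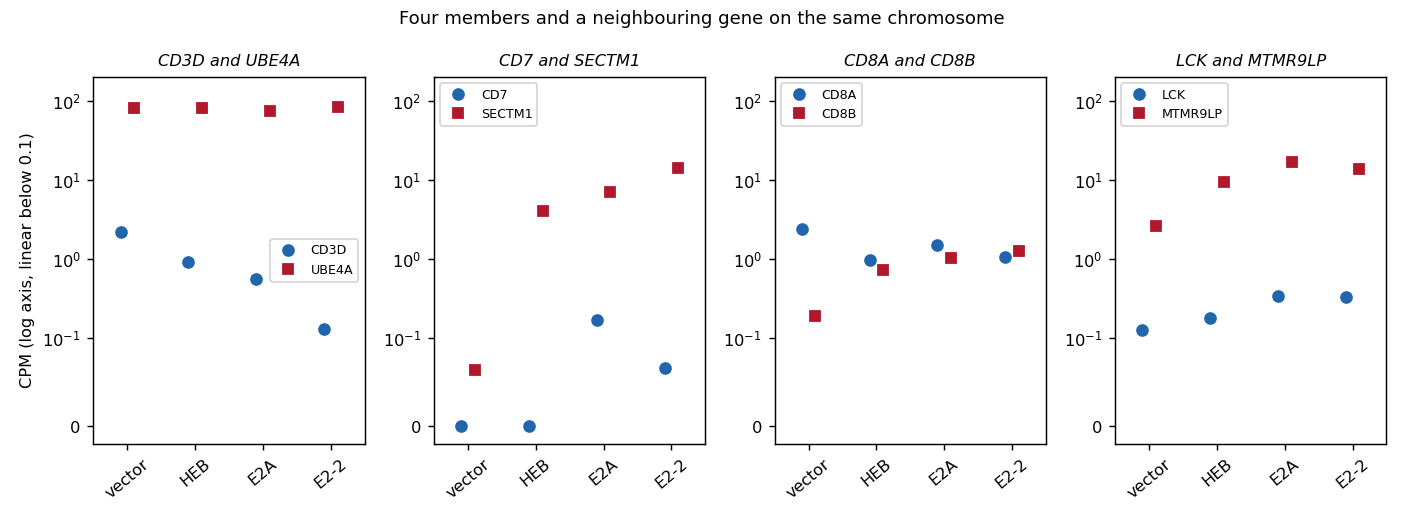
CPM of 4 members (circles) and of a neighbouring gene (squares) in each library, on a log axis that is linear below 0.1, pairs chosen after the values were seen. UBE4A is level while CD3D is highest in vector, SECTM1 goes from 0.0641 CPM in vector to 14.2 in E2-2 beside CD7 at under 0.2, vector is the lowest library for CD8B and the highest for CD8A, and MTMR9LP goes from 2.63 CPM in vector to 17.1 in E2A; heights are not comparable between genes.

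Genes with the most similar pattern were found for the members called against vector (CD3D, CD8A and CST7) among 12765 genes with at least 100 reads, by the distance between centred log2 values of CPM + 0.5 over the 4 libraries. With 4 points per gene, close matches to any pattern can be found among so many genes. Nearest to CD3D were RP11-54O7.1 (406, 218, 153 and 74 reads in vector, HEB, E2A and E2-2; distance 0.199), RP11-54O7.3 (0.211) and LRG1 (0.247), a secreted glycoprotein gene. Nearest to CD8A were TMEM173 (865, 454, 670 and 442 reads; distance 0.031), which encodes the DNA-sensing adaptor STING, SLC5A10 (0.075) and OCIAD2 (0.098). Nearest to CST7 were CCL3L3 (230, 673, 267 and 456 reads; distance 0.404), a chemokine gene with close copies that can share reads, KISS1R (0.494) and LIMA1 (0.681). By this distance, CST7 had less close matches than CD3D or CD8A. The added 0.5 CPM shrinks the folds of low-level genes such as the members, so a near gene need not share their fold. CD3D went from 2.18 CPM in vector to 0.132 in E2-2, and RP11-54O7.1 from 26.0 to 4.88. The distances therefore do not rank how well the patterns match.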

How the data were processed

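RNA-seq of 4 Kasumi-1 libraries was used. The authors deposited 1 table with whole-number read counts per gene and, per the file headers, FPKM values. The submitters' processing notes name TopHat2 2.0.9 and HTSeq 0.9.1 and the builds hg38 and hg19, without roles. The sources used here do not state the annotation, the length behind FPKM or the strand setting, so overlapping and antisense genes are uncertain, and levels are not compared between genes. Inside the span of CD247 lie clone-named genes with 0 or 1 read, and inside that of LCK a signal recognition particle copy with 1 to 6.

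Library sizes were scaled with edgeR 4.0.16 (TMM) in R 4.3.3 over all 50868 genes. Folds have exact conditional binomial (Clopper-Pearson) intervals, and CPM values exact Poisson intervals, computed with Python 3.11.15, scipy 1.17.1 and pandas 2.3.3. A count of 0 was set to 3 reads, which gives a bound. No test across samples was possible. The call rule was tested on simulated counts that held counting error only, which cannot speak to differences between cultures. Alternatives were median-of-ratios scaling, summed counts, no minimum, at least 100 reads, and FPKM.

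The members and lists were chosen with earlier results of these data known. Named were all members, their called relatives (up to 5 per list, by the interval bound nearest to no change), the genes of the kinase and adaptor list, nearest neighbours and nearest patterns. Results for 2 genes of these lists are not reported here, though the list counts include them. Marker lists for B cells, monocytes and epithelial, fibroblast or packaging cells summed to 17.8 to 31.3, 15.9 to 52.6 and 43.2 to 57.7 CPM. MS4A1 had 0 or 1 read and CD14 1 to 3, while CSF1R had 23 reads in vector and 646 in E2-2 and EPCAM 622 to 871 throughout. Genes of the monocyte and B cell lists went both ways. The monocyte gene LYZ had 149 reads in vector and 98 to 107 in the E protein libraries, and MS4A7 had 70 and 35 to 42. The B cell gene CD22 had 28 reads in vector and 9 in E2-2, while CD79A was higher in E2-2, as given above. The part of such cells in the results was not tested.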

Additional observations from a re-analysis of the deposited data

How the results depend on the processing

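Median-of-ratios scaling, summed counts and the authors' FPKM left every count of called members in the 6 comparisons, and every count and median of the other lists, within 1.5 times or 0.1 log2 of its value. For the members, the FPKM values imply the same gene length in every library, so their folds repeat those of summed counts. The interval condition was not applied to FPKM. The minimum number of reads mattered. With at least 100 reads no pair of libraries measured a member, so the counts were 0 lower in E2-2, 0 lower in E2A and 0 higher and 0 lower in HEB against vector, 0 higher and 0 lower in E2-2 against HEB and 0 lower in E2A against HEB. Without a minimum, 2 members were higher in E2-2 against vector (CST7 and NKG7), 1 higher in E2-2 against E2A (CST7) and 2 lower in E2-2 against HEB (CST7 and CD3D).

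For the lists without a minimum, the T cell receptor signalling list had a median of 0.49 in E2-2 and 5 genes higher in E2A and 1 in HEB, the NK list medians of 0.248 in E2-2 and 0.0867 in HEB, the cystatin list 2 genes higher in E2-2 and 1 in E2A, and the SRC, SYK and adaptor list a median of 0.59 in HEB. With at least 100 reads, the NK list medians were -0.249 in E2A and 0.0661 in HEB, and the transcription factor list had 1 gene higher in E2A (median 0.36) and 0 in HEB. The main NK medians were -0.09, -0.10 and -0.13 in E2-2, E2A and HEB, so the sign in E2-2 and HEB changed with the minimum. Over all genes at least 100 reads gave 753 higher and 285 lower in E2-2 (1173 and 493 with the usual minimum), 390 and 88 in E2A (680 and 220), and 183 and 55 in HEB (349 and 169). Without a minimum, 388 were lower in E2A, and 574 higher and 302 lower in HEB. No paired analysis was possible because each group has 1 library. The depth limits LCK, CD3E, CD3G and CD7 most, with 4 to 23 reads over the 4 libraries, and ZAP70, with 46, was measured in no comparison.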
